A study of Mus musculus with 4 samples.

Results

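The comparison set regulatory T (Treg) cells lacking TIGIT beside Treg cells that carry it, both with an intact CD226 gene, in mice with graft-versus-host disease. One library held TIGIT-/- Treg cells and the other TIGIT+/+ Treg cells, and each also held wild-type conventional T cells from the same recipients, in which no gene had been deleted. Cells were kept if they had at least 500 detected genes and at most 10% of their unique molecular identifiers (UMIs, counted transcripts) from mitochondrial genes. They were then sorted by the antibody ratio r, the log2 of CD45.1 over CD45.2 antibody counts after adding 1 to each. Cells of Treg origin had r below -0.6, and conventional cells had r above 2.2 and were divided into CD4 and CD8 cells by whether they had more Cd4 or more Cd8a and Cd8b1 UMIs. The 3 classes held 11679 cells in these 2 libraries, out of 36140 cells past the filter in the 4 libraries of the study.

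BALB/c recipients were lethally irradiated with 900 cGy and given T cell-depleted marrow of CD45.1+ CD45.2+ wild-type C57BL/6 mice together with the Treg cells. The Treg cells were CD4+ Foxp3-GFP+ CD25hi cells sorted from spleens of Foxp3-GFP CD45.2+ CD45.1- C57BL/6 donors that were CD226+/+ TIGIT+/+ ("wild type" below) or CD226+/+ TIGIT-/- ("TIGIT knockout"). Wild-type CD45.1+ CD45.2- C57BL/6 conventional CD4+ and CD8+ T cells followed 2 days later, and on day 8 the spleens were sorted for live cells positive for H-2Kb and TCRb, with 3 pooled per sample. CD226-/- TIGIT+/+ ("CD226 knockout") and CD226-/- TIGIT-/- ("double knockout") Treg cells made up the other 2 libraries. Every recipient thus received wild-type conventional cells, and the knockout is germline and confined by design to the transferred Treg cells. The ages of the mice are not given in the sources used here.

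TIGIT is an inhibitory receptor of T and NK cells that binds CD155 (PVR) on other cells. CD226 (DNAM-1) binds the same ligand and delivers an activating signal, so the receptors compete. On Treg cells, which restrain other T cells and are kept in that state by the transcription factor Foxp3, TIGIT marks an activated subset known for restraining type 1 inflammation.

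Each genotype was 1 library, and the labels put the wild-type library on sequencing lane 3 and the TIGIT knockout library on lane 4. A difference between libraries that is common to all classes and an effect of the TIGIT-/- Treg cells on their neighbours therefore cannot be told apart. The values below describe these 2 libraries with 95% intervals that cover counting error only, and no test between them was possible. The wild-type conventional cells sequenced in the same libraries served as the reference against which a difference of the Treg-origin cells was read. The pair of CD226-deficient libraries, which shares no library with this pair, is given beside it. Its TIGIT-intact library was also on lane 3 and its TIGIT-deficient library on lane 4, so lane and TIGIT status cannot be told apart in any of the 4 libraries, and a value that recurs in the second pair recurs with the same lanes.

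The classes carried the markers of their names. Of Treg-origin cells, 89.1% in the wild-type and 86.4% in the TIGIT knockout library had Xist, the RNA of the inactive X chromosome, and no Y-linked transcript, against 0.182% and 0.194% of conventional CD4 cells. Foxp3 stood at 54.6 UMIs per 1000000 UMIs of the class (CPM, counts scaled to the class total) in wild-type and 47.3 CPM in TIGIT knockout Treg-origin cells, and at 2.26 and 1.47 CPM in conventional CD4 cells. Ikzf2 (Helios), a Treg transcription factor, stood at 476 and 508 CPM in Treg-origin cells and at 43.3 and 28.0 CPM in conventional CD4 cells. Neutrophil genes summed to 1952.5 CPM in wild-type and 1767.5 CPM in TIGIT knockout Treg-origin cells (5.72 and 4.88 CPM in the CD226-deficient pair), and in the richer library 5 cells held 100% of the Lcn2, Elane and Ltf UMIs. In that pair B and plasma cell genes summed to 2322 and 218 CPM and erythroid genes to 1004 and 38.6 CPM, against 217 and 235 CPM and 48.6 and 18.6 CPM here. Myeloid genes summed to 375 and 451 CPM, with 100% of Lyz2 in 5 cells.

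Cd226 transcripts followed the labels: in Treg-origin cells they stood at 31.2 CPM in the wild-type and 32.5 CPM in the TIGIT knockout library, but at 4.01 CPM in the CD226 knockout and 4.39 CPM in the double knockout library. Tigit (chr16:43648867-43664146, minus strand, mm10) gave 21 UMIs in wild-type and 18 UMIs in TIGIT knockout Treg-origin cells, or 9.11 and 8.60 CPM. The position of the deletion in Tigit is not given in the sources used here. Tags from the 3' end report nothing on a deletion that lies elsewhere in a gene and would go against the label if the 3' end had been deleted, so Tigit did not check the label. Cd96 and Pvrig, related receptors, were at 35.6 and 30.1 CPM and at 3.90 and 2.87 CPM.

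Treg-origin cells were 367 of 7654 cells (4.79%, exact binomial interval 4.33 to 5.30%) in the wild-type library and 462 of 10383 cells (4.45%, 4.06 to 4.86%) in the TIGIT knockout library, and the intervals overlapped. CD8 cells were 43.3% (41.9 to 44.7%) of the resolved conventional cells in the wild-type and 48.4% (47.1 to 49.6%) in the TIGIT knockout library. Conventional cells with equal or no Cd4 and Cd8 UMIs were left out of both classes, 1565 and 2775 cells. Of the cells, 43 and 104 lay within 0.2 of the Treg-origin limit of r, and 27 cell barcodes were found in both libraries.

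Cells of the TIGIT knockout library were shallower in every class. The median was 5372 UMIs per Treg-origin cell in the wild-type and 3921.5 in the TIGIT knockout library, 9013 and 7039.5 per CD4 cell, and 11901 and 8887 per CD8 cell. Summed Treg-origin UMIs came to 2305761 and 2093930, against 25778805 to 30743828 for each conventional class, so counting error is wider for the Treg-origin ratios. The standard deviation of the log2 ratio over the 3997 ranked genes was 0.20 in Treg-origin, 0.10 in CD4 and 0.11 in CD8 cells. A ranked gene averaged at least 30 CPM in Treg-origin and 10 CPM in both conventional classes.

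The transcripts that were higher in Treg-origin cells alone were led by Ide, Lcmt1, Gmip and Spc25, and those that differed in all classes by the histone gene Hist1h2ap and by Dusp2 and Ddit4. By limits of size, 18 of 3997 ranked genes (0.45%) were at least 1.5-fold higher in TIGIT knockout Treg-origin cells and within a log2 ratio of 0.20 of equality in both conventional classes, and 9 genes (0.225%) were lower in that way. Shared by all 3 classes at a log2 ratio of at least 0.32 either way were 2 higher genes (0.05%) and 5 lower genes (0.125%). One gene, Ccl5, went in opposite directions in Treg-origin and conventional cells (0.025%). Both conventional classes but not Treg-origin cells had 2 higher genes (0.05%) and 1 lower gene (0.025%). All log2 ratios are of CPM plus 1, TIGIT knockout over wild type, which understates the ratio of low genes.

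**Figure D1:**
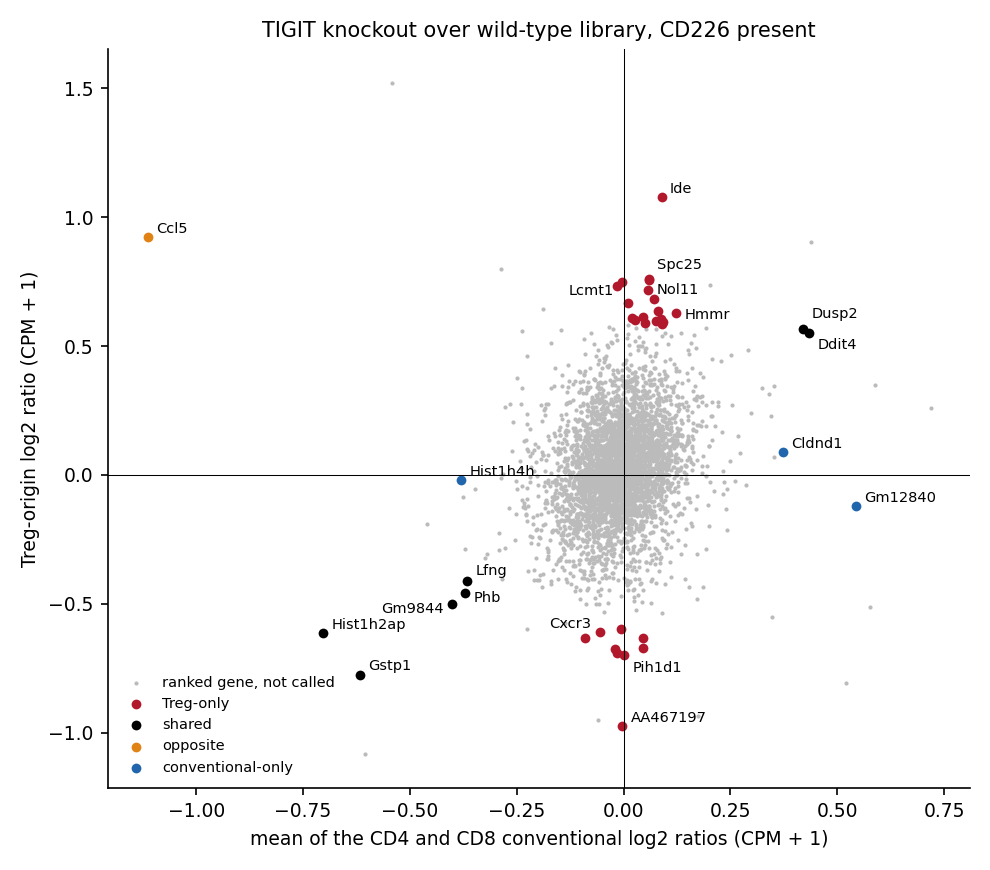
Each point is 1 of 3997 ranked genes; the vertical axis is its log2 ratio (TIGIT knockout over wild-type library, CPM plus 1) in Treg-origin cells and the horizontal axis the mean of its log2 ratios in conventional CD4 and CD8 cells. Treg-only genes lie above and below the centre, shared genes lie at the lower left (Hist1h2ap, Gstp1) and upper right (Dusp2, Ddit4), and Ccl5 stands alone at the upper left with 0.92 in Treg-origin cells.

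Ide (insulin-degrading enzyme, a zinc protease; chr19:37268743-37337852, minus strand, mm10) had the largest Treg-only ratio among the higher genes. In Treg-origin cells it stood at 33.0 CPM in the wild-type, 70.7 CPM in the TIGIT knockout, 37.2 CPM in the CD226 knockout and 42.5 CPM in the double knockout library. The TIGIT knockout library was thus the high one of the 4, and the others lay within 10 CPM of each other. The ratio was 2.14 (1.62 to 2.87) in Treg-origin cells, 1.12 in CD4 and 1.02 in CD8 cells. The difference did not recur with CD226 deleted, where the log2 ratio was 0.19.

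Spc25, Hmmr and Rfc4, which act in chromosome division or replication, were among the others. Spc25 (chr2:69193895-69206194, minus strand), a subunit of the NDC80 complex that ties kinetochores to microtubules, was at 36.0 CPM in wild-type and 61.6 CPM in TIGIT knockout Treg-origin cells, and at 29.8 and 43.9 CPM in the CD226 knockout and double knockout libraries. Both libraries without TIGIT lay above both libraries with it. The double knockout interval (35.3 to 54.0 CPM) nonetheless overlapped those of the wild-type (28.7 to 44.6 CPM) and CD226 knockout libraries (22.2 to 39.0 CPM). In the CD226 knockout and double knockout libraries 5 cells held 32.7% and 25.6% of the Spc25 UMIs. Hmmr (a spindle protein and hyaluronan receptor), a further Treg-only gene, was at 78.9 and 123 CPM, a ratio of 1.55 (1.28 to 1.89), and its CD226-deficient log2 ratio was 0.49. Rfc4, a subunit of the clamp loader of DNA replication, had a ratio of 1.52 (1.21 to 1.92) and a CD226-deficient log2 ratio of 0.31.

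Nol11, a component of the complex that processes the small-subunit ribosomal RNA, was at 25.2 CPM in wild-type and 42.0 CPM in TIGIT knockout Treg-origin cells, and at 26.3 and 48.3 CPM in the CD226-deficient pair. Both TIGIT-deficient libraries were again the higher ones. Its conventional cells stood at 49.7 and 50.7 CPM in CD4 and 53.4 and 56.8 CPM in CD8 cells. The TIGIT-deficient Treg-origin levels lay closer to those of the conventional cells than the TIGIT-intact ones did, as they did for Spc25 and Hmmr. In the CD226-intact pair such a step follows from picking genes that were higher in Treg-origin cells alone. Other members moved away from the conventional level. Ide went from 33.0 to 70.7 CPM beside 32.2 and 36.0 CPM in CD4 cells, and Arl5a from 105 to 159 CPM beside 50.4 and 48.1 CPM.

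The remaining higher genes have unrelated roles, and most were not higher in the CD226-deficient pair. Lcmt1, which methylates the phosphatase PP2A, was at 27.8 and 47.3 CPM, and Gmip, a GTPase-activating protein, was at 22.6 and 38.2 CPM. Hivep2 (a zinc finger transcription factor), Wdr83 (a signalling scaffold), Gatad2a (a NuRD complex subunit), Bdp1 (of the RNA polymerase III factor TFIIIB), Kpna3 (an importin) and Tbl1xr1 (of the NCoR corepressor) had ratios between 1.54 and 1.63. The other members were Arl5a, Ccdc82, Brd8 and Rdm1, with ratios of 1.51 to 1.54. For Lcmt1, Hivep2, Bdp1, Gatad2a, Tbl1xr1, Wdr83, Ccdc82, Brd8 and Rdm1 the CD226 knockout library stood above the double knockout library, with log2 ratios of -0.28 to -0.01 in that pair. The CD226 knockout library, which has TIGIT, had 44.6 CPM of Lcmt1 and 36.6 CPM of Hivep2, the latter beside 38.2 CPM in the TIGIT knockout library. Over all 18 higher genes, the wild-type library was the lowest of the 4 for 14 and the TIGIT knockout library the highest for 17. Picking genes by their ratio in the CD226-intact pair favours such an order.

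AA467197 (chr2:122636986-122641191, plus strand), which encodes the small mitochondrial protein NMES1, was the lowest of the Treg-only lower genes. In Treg-origin cells it stood at 90.2 CPM in the wild-type, 45.4 CPM in the TIGIT knockout, 92.7 CPM in the CD226 knockout and 56.6 CPM in the double knockout library. The libraries without TIGIT were both low and those with TIGIT both high, but in the CD226 knockout library 5 cells held 37.0% of the UMIs. The ratio of the CD226-intact pair was 0.503 (0.390 to 0.644), and in conventional CD4 and CD8 cells it was 0.898 and 1.11. In the CD226-deficient pair the conventional cells were lower too. The log2 ratios there were -0.70 in Treg-origin, -0.25 in CD4 and -0.44 in CD8 cells.

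Cxcr3 (chrX:101731535-101734269, minus strand), the receptor for interferon-induced chemokines that marks type 1 Treg and effector cells, stood at 133 CPM in wild-type and 86.9 CPM in TIGIT knockout Treg-origin cells. The CD226 knockout library had 136 CPM and the double knockout library 111 CPM, so both TIGIT-deficient libraries were the lower of their pair. In the CD226-deficient pair the intervals overlapped (119 to 155 and 97.3 to 127 CPM). The log2 ratios of that pair were -0.29 in Treg-origin, -0.20 in CD4 and -0.02 in CD8 cells. The Cxcr3 ratio of the CD226-intact pair was 0.653 (0.540 to 0.787) in Treg-origin, 1.04 in CD4 and 0.890 in CD8 cells. Its 5 richest cells held 10.1% of the UMIs in the wild-type library.

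Metabolic genes made up part of the other lower members. Fh1 (fumarase, of the citric acid cycle) was at 92.4 and 56.8 CPM, Cyp51 (lanosterol demethylase, of cholesterol synthesis) at 39.5 and 24.4 CPM, and Ldah (a lipid droplet hydrolase) at 42.1 and 26.7 CPM. Pih1d1 (of the R2TP chaperone complex) was at 75.9 and 46.3 CPM, Ftsj3 (a ribosomal RNA methyltransferase) at 49.4 and 31.5 CPM, Nxpe3 at 38.6 and 23.9 CPM and Klhl6 (a ubiquitin ligase adaptor) at 100.2 and 65.9 CPM. In the CD226-deficient pair Ldah, Cyp51 and Klhl6 had Treg-origin log2 ratios of -0.35, -0.25 and -0.23, whereas Ftsj3 had 0.55 and Fh1 0.01. For Klhl6 the conventional cells of that pair had -0.12 (CD4) and -0.28 (CD8), so the Treg-origin cells did not stand apart from them. In the same classes Ldah had -0.07 and -0.14, Cyp51 0.003 and -0.02, and Ftsj3 0.25 and 0.24.

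**Figure D2:**
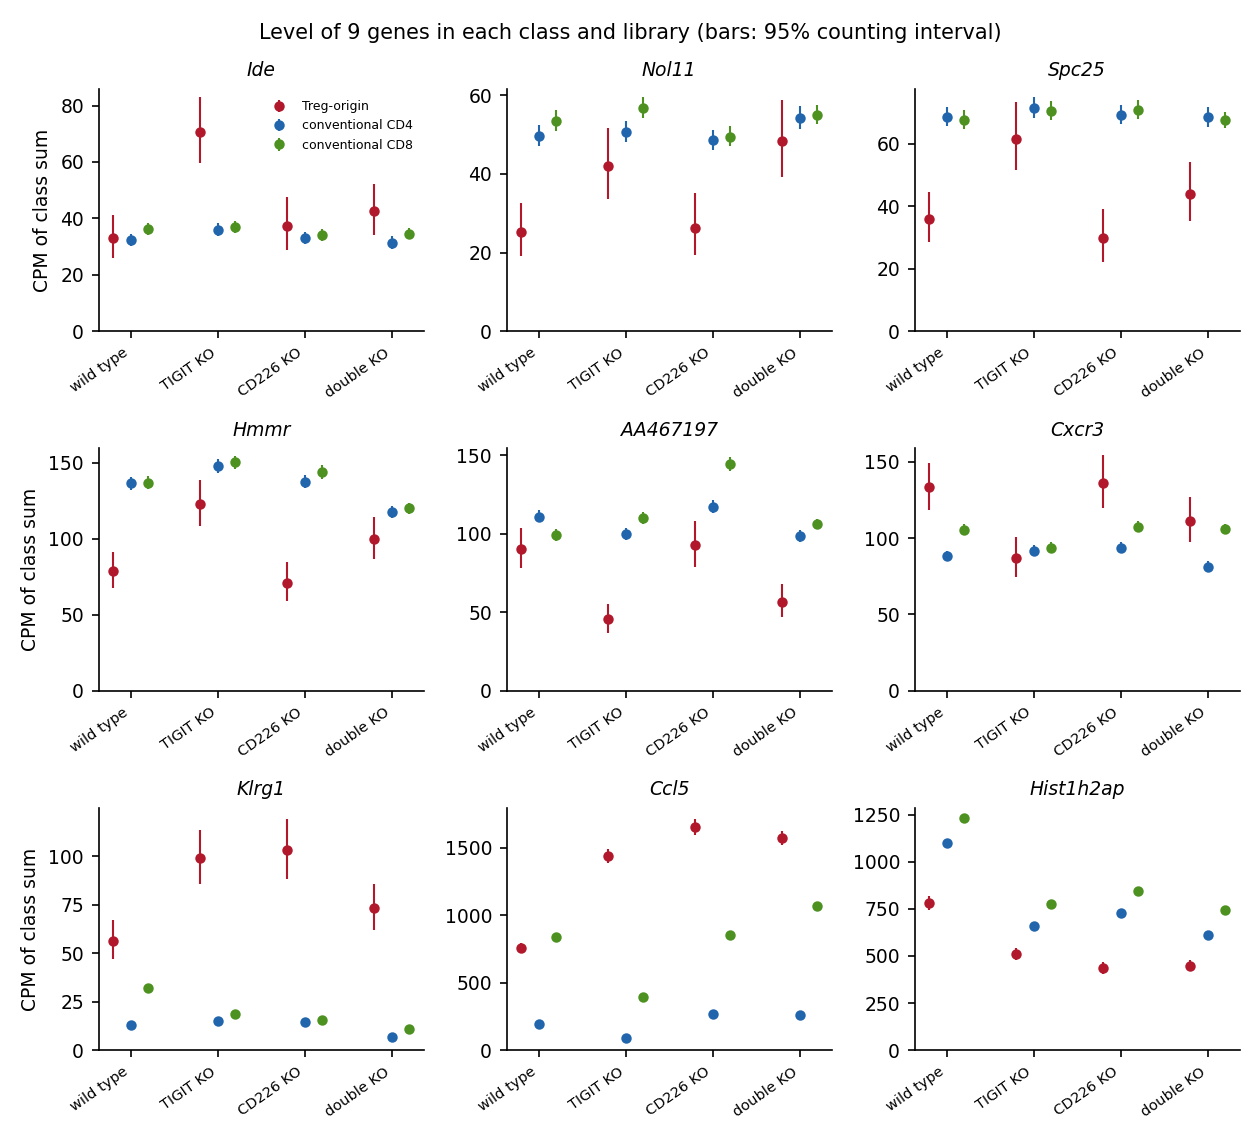
CPM of 9 genes (vertical axes, from 0) in the class sums of the wild-type, TIGIT knockout (KO), CD226 knockout and double knockout libraries; points are single libraries, colours are classes and bars are 95% Poisson intervals that cover counting error only. Spc25, Hmmr and Nol11 are higher and AA467197 and Cxcr3 lower in the Treg-origin cells of both TIGIT-deficient libraries, Ide is high in the TIGIT knockout library (70.7 CPM) alone, and for Ccl5 and Hist1h2ap the Treg-origin cells of the wild-type library stand apart. For Klrg1 the wild-type library is lowest, and its interval overlaps that of the double knockout library.

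Read against the CD226-deficient pair as a whole, the higher genes recurred unevenly. Of the 18, 9 (50%) had a log2 ratio above 0 there, against 55.1% of all ranked genes, but 4 (22.2%) were at a log2 ratio of at least 0.32, against 9.66%. Nol11, Spc25 and Hmmr were among them. Of the 9 lower genes, 2 (22.2%) were at -0.32 or lower there, AA467197 and Ldah, against 5.30%. The membership also moved with the processing: thinning every cell to 2000 UMIs gave 111 higher and 70 lower genes, of which 8 and 2 were among those above, and doubling the expression minimum to 60 and 20 CPM left 3 and 5. Of the 40 ranked genes past 1.5-fold in Treg-origin cells, 12 were set aside because a conventional class was at or past a log2 ratio of 0.20 and 6 because 5 cells held over 25% of the UMIs, 5 of them for both.

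Transcripts of mitosis were higher as a group in Treg-origin cells of the TIGIT knockout library, while those of the conventional cells around them differed little. Of 29 mitosis genes, 28 had a log2 ratio above 0 in Treg-origin cells with a median of 0.29, against 54.4% above 0 and a median of 0.02 for the 6969 genes of at least 10 CPM. In conventional CD4 cells 16 of 29 were above 0 with a median of 0.01 (all genes 42.4%), and in CD8 cells 23 of 29 with a median of 0.06 (all genes 44.9%). Summed over the list, Treg-origin cells had 3547 CPM in the wild-type, 4134 CPM in the TIGIT knockout, 2897 CPM in the CD226 knockout and 3702 CPM in the double knockout library. The ratio of the first pair was 1.17 (1.13 to 1.20), and both TIGIT-deficient libraries were the higher of their pair. In the CD226-deficient pair all 29 genes were above 0 with a median of 0.38. Its conventional cells had 8 (CD4) and 5 (CD8) of 29 above 0, with medians of -0.03 and -0.07. The share of all genes above 0 in the conventional cells of that pair is not given here.

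Genes of the kinetochore, the spindle and the final separation of daughter cells were at the top of the list. Spc25 (log2 0.76), Hmmr (0.63), Cep55 (0.55), which acts in the last cut between daughter cells, and Cenpf (0.54), a kinetochore protein, had the largest values. Cenpf stood at 119 and 173 CPM, a ratio of 1.45 (1.24 to 1.71), and Cep55 at 27.8 and 41.1 CPM. Top2a, which untangles chromosomes, was at 304 and 380 CPM (log2 0.32, with a ratio interval of 1.13 to 1.39), and Mki67, a coat of mitotic chromosomes, at 281 and 326 CPM (1.16, 1.04 to 1.29). At the bottom of the list Spc24, the partner of Spc25, was at 142 and 140 CPM, and the checkpoint kinase gene Bub1 at 23.9 CPM in each library. Cdk1, the kinase that starts mitosis, was at 157 and 177 CPM (1.13, 0.971 to 1.30).

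**Figure D3:**
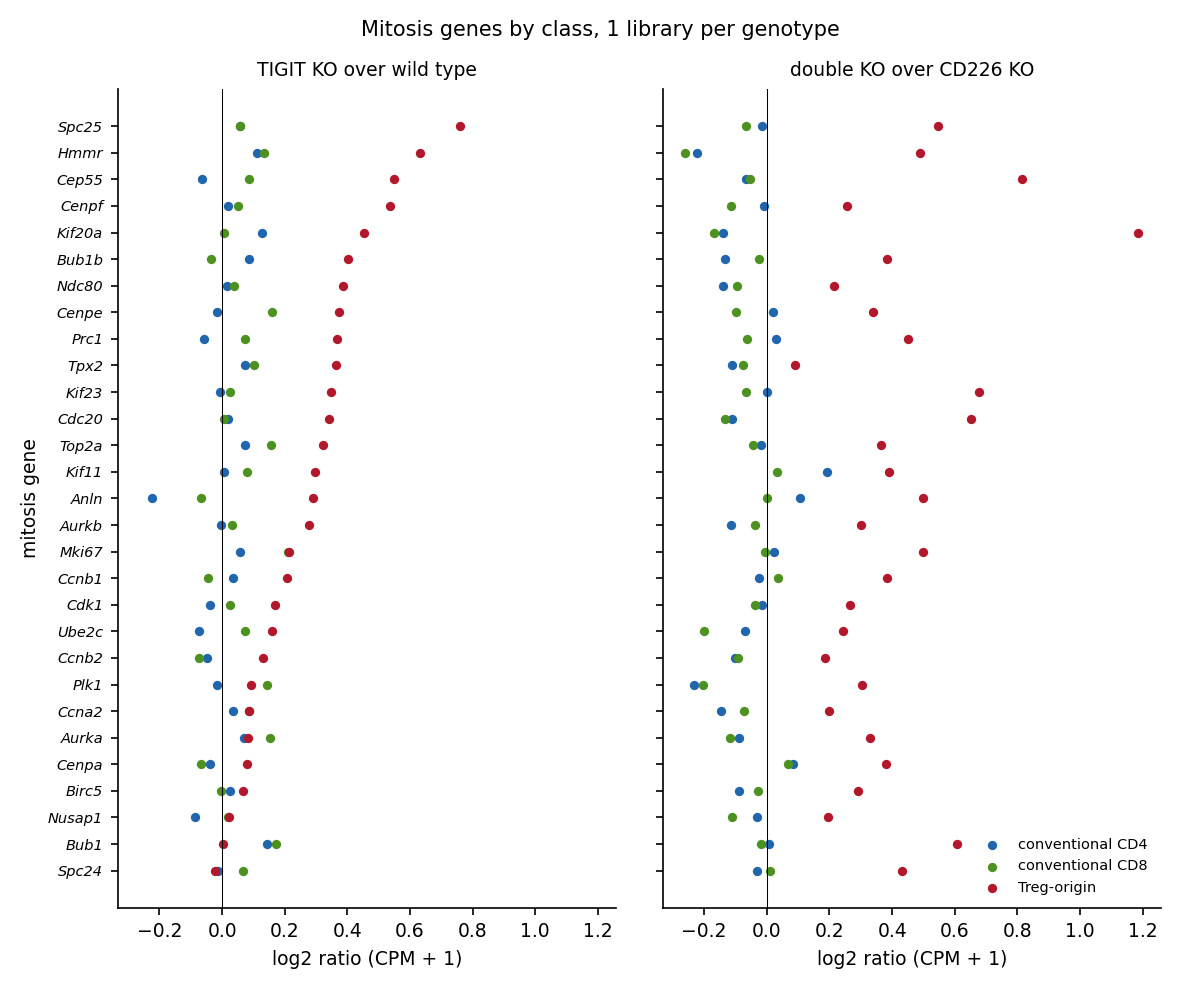
Log2 ratio (CPM plus 1) of each of 29 mitosis genes in Treg-origin and conventional CD4 and CD8 cells, for the TIGIT knockout over the wild-type library (left) and the double knockout over the CD226 knockout library (right); genes are ordered by the left Treg-origin value. On the left 28 of 29 Treg-origin points lie above 0, and on the right all 29. Of the conventional points, 16 (CD4) and 23 (CD8) of 29 lie above 0 on the left, and 8 and 5 of 29 on the right.

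Genes of mitosis are known to be switched on late in the cell cycle through promoters that carry CCAAT boxes and the cell cycle homology region, a short element whose core reads TTTGAA. The promoters of the 4 mitosis genes with the largest Treg-origin log2 ratios are shown to let these elements be seen. Each line gives 80 bases that end just before the transcription start, 5' to 3' on the gene's own strand, from RefSeq windows of GRCm38.p6, with CCAAT or its reverse complement ATTGG in capitals. They are chr2:69206214-69206293 (minus strand) for Spc25, chr11:40733438-40733517 (minus strand) for Hmmr, chr19:38054904-38054983 (plus strand) for Cep55 and chr1:189688087-189688166 (minus strand) for Cenpf.
Spc25: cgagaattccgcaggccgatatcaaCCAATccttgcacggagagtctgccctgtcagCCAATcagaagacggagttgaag
Hmmr: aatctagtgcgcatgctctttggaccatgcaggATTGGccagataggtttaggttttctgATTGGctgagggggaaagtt
Cep55: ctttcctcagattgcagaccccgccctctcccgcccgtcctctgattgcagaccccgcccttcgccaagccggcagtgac
Cenpf: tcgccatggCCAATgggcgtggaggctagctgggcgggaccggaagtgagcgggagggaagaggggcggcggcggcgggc

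Spc25 and Hmmr each hold 2 such boxes in these 80 bases, Cenpf 1 and Cep55 none. All 4 hold TTTGAA or its reverse complement TTCAAA shortly after the start, outside the bases shown. Over windows of 250 bases before to 50 after the start, 24 of the 29 mitosis genes had a window, and 19 of these (79.2%) held TTTGAA on either strand, against 15% of 20 genes of S phase and 18.1% of all 27025 genes. CCAAT on either strand was in 79.2% of the mitosis windows, 60% of the S-phase windows and 37.9% of all windows. These matches describe the letters of the promoters and were not tied to binding or to the ratios above.

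The share of cells carrying mitosis transcripts and the level within them differed by unlike amounts in the 2 pairs. After thinning to 2000 UMIs per cell, 37.7% (32.6 to 43.0%) of 353 wild-type and 41.5% (36.6 to 46.5%) of 405 TIGIT knockout Treg-origin cells had at least 3 UMIs of the list, with overlapping intervals. The CD226 knockout library had 31.1% and the double knockout library 38.1%. Thinning left out 14 and 57 shallower Treg-origin cells, and without thinning the shares were 51.0% and 47.2%, in the other order. Among the thinned cells with at least 3 such UMIs, the list stood at 6079 CPM in the wild-type, 7738 CPM in the TIGIT knockout, 6434 CPM in the CD226 knockout and 6533 CPM in the double knockout library. In the CD226-intact pair the level differed more than the share, and in the CD226-deficient pair the share differed more than the level. Conventional cells had shares of 65.5% and 66.8% (CD4) and 85.6% in both libraries (CD8), well above the Treg-origin cells.

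**Figure D4:**
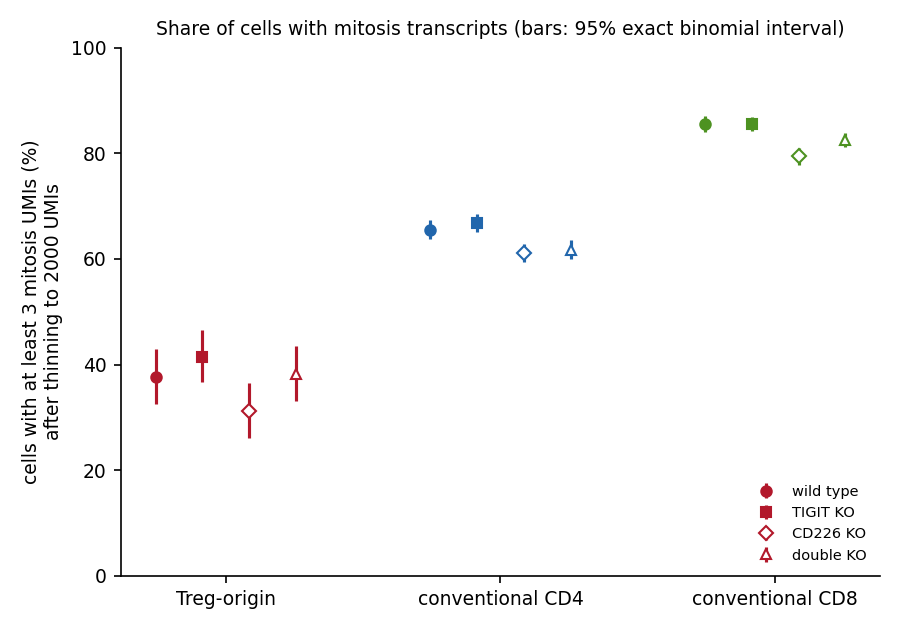
Share of cells (vertical axis, percent) with at least 3 UMIs of the mitosis list after thinning each cell to 2000 UMIs, for the 3 classes (horizontal axis) in the 4 libraries; bars are 95% exact binomial intervals, which cover counting error only. Treg-origin shares lie between 31.1% and 41.5% with overlapping intervals within each pair, below the conventional CD4 (61.1% to 66.8%) and CD8 (79.4% to 85.6%) shares.

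Genes of DNA replication moved less than those of mitosis. Of 23 measured S-phase genes 15 were above 0 in Treg-origin cells (all genes 54.4%) with a median of 0.06. Ccne1 (cyclin E1, 29.1 and 41.1 CPM) and Gins2 (of the replicative helicase, 33.4 and 45.4 CPM) were highest. Cdc45 (32.5 and 26.7 CPM) and Cdt1 (34.7 and 29.6 CPM) were lowest. In the CD226-deficient pair the S-phase median was 0.23, with 21 of 23 above 0. Its conventional cells had 8 of 24 above 0 with a median of -0.01 (CD4) and 23 of 24 with 0.10 (CD8). Ribosome biogenesis genes had a Treg-origin median of -0.02 here, with 14 of 29 above 0, and 0.35 with 25 of 29 above 0 in the CD226-deficient pair. The conventional cells of that pair were higher too, with 28 of 30 above 0 and a median of 0.16 (CD4) and 31 of 31 and 0.19 (CD8).

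Whether a TIGIT-dependent difference of Treg-origin cells exceeded that of the conventional cells of the same libraries was tested over all 4 libraries. The fit (edgeR, quasi-likelihood, 12 class sums with library as a block) took 2 libraries per TIGIT status and averaged over CD226. Lane follows TIGIT status in all 4, so a difference of lanes that acts on one class more than another cannot be told apart from it. Of 12566 genes, none was higher in Treg-origin cells relative to conventional cells at an adjusted p of 0.05 or less (0%) and 1 was lower (0.00796%), with 792 genes under 0.05 before adjustment. The lower gene was Ccl1 (chr11:82176657-82305690, minus strand), a chemokine for CCR8 on Treg and type 2 cells, with a log2 difference of -1.997 (SE 0.24, edgeR adjusted p = 0.00708). Its Treg-origin level was 101.9 CPM in the wild-type, 57.8 CPM in the TIGIT knockout, 110.4 CPM in the CD226 knockout and 16.1 CPM in the double knockout library. Conventional CD4 cells of the wild-type and TIGIT knockout libraries had 225 and 281 CPM. Of these UMIs 5 cells held 60.9% in the wild-type, 63.6% in the TIGIT knockout, 91.2% in the CD226 knockout and 66.7% in the double knockout library, and without the CD226 knockout library the edgeR adjusted p of Ccl1 was 0.078.

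Hmmr ranked second in this test (log2 difference 0.59, SE 0.09, edgeR adjusted p = 0.068) and did not pass. Over the mitosis list the difference was above 0 for all 29 genes with a median of 0.26, 19 genes were under 0.05 before and 0 after adjustment, and 50.6% of all genes tested were above 0. The tested libraries include those that gave the Treg-only genes, so their differences here repeat the same data. Spc25 had 0.63 (SE 0.16), Nol11 0.68 (SE 0.15) and AA467197 -0.70 (SE 0.18), with edgeR adjusted p between 0.44 and 0.61. Ide had 0.63 (SE 0.18, edgeR adjusted p = 0.66).

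Of the genes that define Treg cells, Klrg1 and the CD73 gene were higher and Socs2 lower in the TIGIT knockout library, while Foxp3, Il2ra, Ctla4 and Ikzf2 had ratios near 1. Past a log2 ratio of 0.32 were 6 higher and 2 lower genes of the 21 measured, against 268 higher (6.71%) and 181 lower (4.53%) of the 3997 ranked genes. Measured genes needed a mean of only 10 CPM in Treg-origin cells, against 30 CPM for ranked genes. Counting error is wider among such low genes, so these shares are not directly comparable. Of 21 measured Treg identity genes, 12 were above 0 (all genes 54.4%) with a median of 0.09, and their summed level was 3937.5 and 4002 CPM (ratio 1.02, 0.986 to 1.05). Foxp3 had a ratio of 0.865 (0.658 to 1.13), Il2ra (the IL-2 receptor alpha chain) 0.956 (0.817 to 1.12), Ctla4 (an inhibitory receptor) 0.982 (0.859 to 1.12) and Ikzf2 1.07 (0.980 to 1.16), each with an interval that includes 1. An interval that includes 1 does not show that the levels were equal.

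Klrg1, a receptor of terminally differentiated Treg cells, stood in Treg-origin cells at 56.4 CPM in the wild-type, 98.9 CPM in the TIGIT knockout, 103 CPM in the CD226 knockout and 73.2 CPM in the double knockout library. The wild-type library was the lowest, with an interval (47.1 to 66.9 CPM) that overlapped that of the double knockout library (62.0 to 85.9 CPM). The CD226 knockout library, which has TIGIT, was as high as the TIGIT knockout library. The ratio of the CD226-intact pair was 1.75 (1.40 to 2.201) in Treg-origin cells, 1.14 in CD4 and 0.582 in CD8 cells. Nt5e (CD73, which makes adenosine) was at 14.3 and 24.4 CPM (1.70, 1.08 to 2.72). At the low end Socs2, a feedback inhibitor of cytokine signalling, was at 163 and 107 CPM (0.659, 0.556 to 0.779), and at 132 CPM in both CD226-deficient libraries. Socs2 was also lower in the conventional cells of the TIGIT knockout library, with ratios of 0.864 (0.743 to 1.004) in CD4 and 0.825 (0.710 to 0.958) in CD8 cells. Gpr55, a lipid receptor, was at 13.0 and 9.55 CPM.

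Effector molecules of Treg cells gave higher Areg and Il10 and lower Prf1 in the TIGIT knockout library, and few cells held many of these UMIs. Areg (amphiregulin, a tissue repair factor) was at 26.5 CPM in the wild-type, 59.7 CPM in the TIGIT knockout, 45.8 CPM in the CD226 knockout and 36.6 CPM in the double knockout library. Il10, the suppressive cytokine, was at 36.0, 65.9, 58.9 and 47.8 CPM in the same order. The wild-type library was the lowest for both genes, and in the CD226-deficient pair both were lower without TIGIT. In this pair 5 cells held 83.6% of the wild-type and 32% of the TIGIT knockout Areg UMIs, and 43.4% and 39.1% of those of Il10. Prf1 (perforin) was at 50.7 and 25.8 CPM, with 64.1% of the wild-type UMIs in 5 cells, and Tgfb1 at 133 and 113 CPM. The summed level was 5743 and 5570 CPM (ratio 0.970, 0.946 to 0.995), of which Gzmb (granzyme B) made up 4203 and 3842 CPM. Of 16 measured genes 11 were above 0 (all genes 54.4%) with a median of 0.12, against -0.09 with 7 above 0 in the CD226-deficient pair.

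Type 1 genes were mostly lower in Treg-origin cells of the TIGIT knockout library, and their order turned in the CD226-deficient pair. Of 15 measured genes, 3 were above 0 (all genes 54.4%) with a median of -0.31, against 9 and a median of 0.22 in the CD226-deficient pair. Csf2 (the cytokine GM-CSF), at 29.9 and 3.82 CPM, and Ccl4, at 261 and 136 CPM, were lowest, with 85.5% and 77.6% of the wild-type UMIs in 5 cells. Tbx21 (T-bet), the type 1 transcription factor, was at 31.2 and 19.6 CPM (0.627, 0.417 to 0.933), and Cxcr3 is given above. The summed level was nonetheless higher, 2326 and 2676 CPM (ratio interval 1.11 to 1.19), and Ccl5 alone made up 758 and 1438 CPM of it. Conventional CD4 cells had a median of -0.16 and CD8 cells of 0.04.

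Ccl5 (chr11:83525778-83530518, minus strand), the chemokine RANTES, was the gene with opposite directions. In Treg-origin cells it stood at 758 CPM in the wild-type, 1438 CPM in the TIGIT knockout, 1654 CPM in the CD226 knockout and 1572 CPM in the double knockout library. In conventional CD8 cells it stood at 843, 392, 855 and 1073 CPM and in CD4 cells at 194, 88.8, 272 and 262 CPM in the same order. The wild-type library was thus the low one among Treg-origin cells, and the TIGIT knockout library the low one among conventional cells. The Treg-origin ratio was 1.90 (1.79 to 2.01), with 33.7% and 26.6% of the UMIs in 5 cells. The ratios of CD4 and CD8 cells were 0.456 and 0.464. Treg-origin cells with more Cd8 than Cd4 UMIs numbered 10 and 22, and without them the Treg-origin log2 ratio was 1.02, beside 0.92 with them. Over the other settings it lay between 0.40, under a stricter cell filter (1000 genes, 5% mitochondrial UMIs), and 1.1, under stricter CD45 limits.

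Type 2, cytotoxic and homing genes gave values in both directions. Of 9 measured type 2 genes 7 were above 0 (all genes 54.4%) with a median of 0.29 (CD226-deficient pair -0.14). Ccr4 (a chemokine receptor, 9.11 and 12.9 CPM) and Cysltr1 (a leukotriene receptor, 28.2 and 38.2 CPM) were highest. Cyp11a1, which begins steroid synthesis, at 63.3 and 24.4 CPM, and Il4ra, the IL-4 receptor, at 36.4 and 21.5 CPM, were lowest. Of 15 cytotoxicity genes 5 were above 0 (all genes 54.4%) with a median of -0.13. Gzmk (granzyme K), at 24.3, 71.6, 80.1 and 42.0 CPM in the wild-type, TIGIT knockout, CD226 knockout and double knockout libraries, had the largest ratio of that list, 2.95 (2.16 to 4.08), and the wild-type library was the low one. In this pair 5 cells held 57.1% and 33.3% of its UMIs. Klrd1 (CD94) was at 18.2 and 33.9 CPM, and Ly6c2, at 50.7 and 23.4 CPM, was lowest. In conventional CD8 cells Gzmk and Ly6c2 were both lower in the TIGIT knockout library, with ratios of 0.568 and 0.490, so Gzmk went in opposite directions in the classes and Ly6c2 in the same.

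Of 17 homing genes 11 were above 0 (all genes 54.4%) with a median of 0.18, and the CD226-deficient pair had a median of -0.22. Gpr183, the oxysterol receptor EBI2 that positions cells in lymphoid tissue, was at 103.7 CPM in wild-type and 151 CPM in TIGIT knockout Treg-origin cells (1.46, 1.23 to 1.73), and at 109 and 129 CPM in the CD226-deficient pair. Gpr65, an acid-sensing receptor, was highest, at 15.6 and 25.8 CPM, and at 20.6 and 33.2 CPM in the CD226-deficient pair. Both were thus higher in the TIGIT-deficient library of each pair. Cxcr3, described above, was among the lowest of the list.

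**Figure D5:**
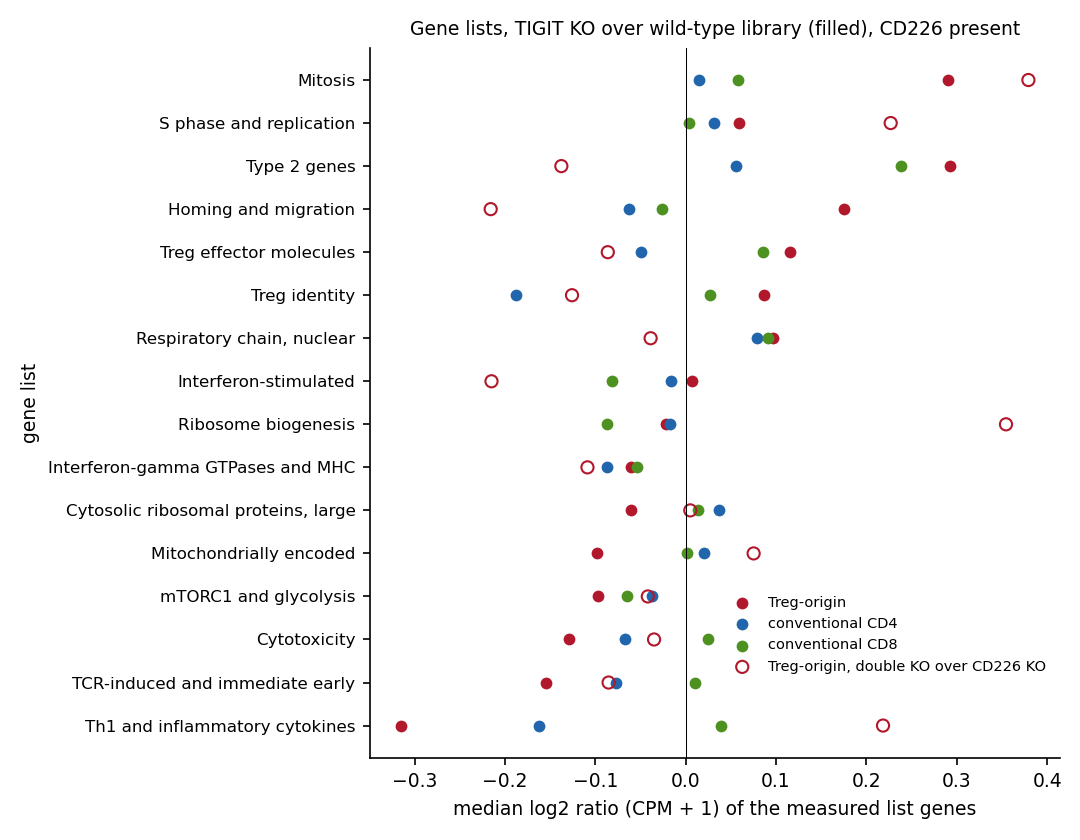
Median log2 ratio (CPM plus 1, horizontal axis) of the measured genes of 16 lists in Treg-origin, conventional CD4 and conventional CD8 cells, TIGIT knockout over wild-type library (filled), and in Treg-origin cells of the double knockout over the CD226 knockout library (open). The 3 filled points coincide for the nuclear respiratory chain genes (0.08 to 0.10), are apart for the mitosis genes (0.29 in Treg-origin cells), and the open point keeps the side of the Treg-origin point for mitosis but not for the type 1, type 2 and homing lists.

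Differences that all 3 classes shared were led by Hist1h2ap, a replication-dependent histone H2A gene (chr13:21833026-21833507, minus strand). It stood at 779 CPM in the wild-type and 509 CPM in the TIGIT knockout library in Treg-origin cells, 1100 and 657 CPM in CD4 cells, and 1231 and 777 CPM in CD8 cells. The ratios were 0.654, 0.598 and 0.631. In the CD226 knockout and double knockout libraries CD4 cells had 729 and 613 CPM, so the wild-type library stood apart from the other 3. Histone genes are near-identical copies whose reads the counting could divide among them. Over the list of replication-dependent histones 11 of 18 genes were above 0 in Treg-origin cells (all genes 54.4%) with a median of 0.04, against -0.12 in CD4 and -0.14 in CD8 cells.

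Gstp1 (glutathione transferase pi) had ratios of 0.582, 0.630 and 0.666 in Treg-origin, CD4 and CD8 cells, with 160 and 93.1 CPM in Treg-origin cells. Its Treg-origin levels in the CD226-deficient pair were 104 and 81.0 CPM, and the wild-type library was again the highest of the 4. Gm9844 (a predicted gene), Phb (prohibitin of the inner mitochondrial membrane) and Lfng (a Fringe enzyme that modifies Notch) had ratios between 0.700 and 0.785 in the 3 classes. On the other side stood Dusp2, a phosphatase of MAP kinases, with ratios of 1.49 (1.28 to 1.73), 1.31 and 1.38, and Ddit4 (REDD1), an inhibitor of mTORC1 induced by stress, with 1.47 (1.20 to 1.80), 1.28 and 1.44. Dusp2 was at 133, 198, 200.3 and 167 CPM and Ddit4 at 74.6, 110, 122 and 80.03 CPM in wild-type, TIGIT knockout, CD226 knockout and double knockout Treg-origin cells. The wild-type library was the lowest of the 4 for both, and with CD226 deleted neither was higher in Treg-origin cells without TIGIT.

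Nuclear genes of the respiratory chain differed by a little in the same direction in every class. Of 32 genes, 30 were above 0 in Treg-origin cells with a median of 0.10, 29 in CD4 cells with a median of 0.08 and 28 in CD8 cells with a median of 0.09. The shares over all genes of at least 10 CPM were 54.4%, 42.4% and 44.9% in these classes. In Treg-origin cells they summed to 12888 CPM in the wild-type and 13564 CPM in the TIGIT knockout library (ratio 1.05, 1.04 to 1.07). Ndufs6 (167 and 199 CPM) and Usmg5 (116 and 138 CPM) were highest, and Cox4i1 (1142 and 1103 CPM) and Ndufa1 (163 and 160 CPM) lowest. The CD226-deficient pair had a Treg-origin median of -0.04, with 12 of 32 above 0. Genes encoded in the mitochondrial genome went the other way in Treg-origin cells, with 2 of 13 above 0 and a median of -0.10, against 0.02 in CD4 and 0.00 in CD8 cells.

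Genes for ribosomal proteins were lower in Treg-origin cells of the TIGIT knockout library and higher in its conventional cells. Of 45 large-subunit genes 12 were above 0 in Treg-origin cells with a median of -0.06, against 33 with a median of 0.04 in CD4 and 26 with 0.01 in CD8 cells. Of 32 small-subunit genes 8 were above 0 in Treg-origin cells with a median of -0.04, against 26 in CD4 and 22 in CD8 cells. Rpl4 was lowest, at 1419 and 1202 CPM (0.848, 0.804 to 0.893). In the CD226-deficient pair the medians were 0.01 and 0.02. Glycolytic and mTORC1 genes were lower by a little in each class, with medians of -0.10, -0.04 and -0.06 and 5, 7 and 6 of the 21 or 22 measured genes above 0. Over all genes of at least 10 CPM, 54.4% (Treg-origin), 42.4% (CD4) and 44.9% (CD8) were above 0.

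Genes of interferon responses and of early antigen receptor signalling had Treg-origin medians between -0.15 and 0.01. Of all genes of at least 10 CPM, 54.4% were above 0 in Treg-origin cells and 42.4% in CD4 cells. Interferon-stimulated genes had 17 of 33 above 0 with a median of 0.01, although their summed level was 6509 and 7428 CPM, and interferon-gamma GTPase and MHC genes 9 of 28 with a median of -0.06, beside -0.09 and -0.05 in CD4 and CD8 cells. In the CD226-deficient pair 5 of 35 interferon-stimulated genes were above 0 in Treg-origin cells, with a median of -0.21. The interferon-gamma GTPase and MHC genes had 5 of 28 above 0 there, with a median of -0.11. Immediate early genes had 6 of 15 above 0 with a median of -0.15, in which Fos (15.2 and 6.69 CPM) and Jun (16.9 and 8.12 CPM) were lowest and Dusp2 and Egr1 (22.6 and 33.4 CPM) highest. Jun was also lower in the conventional cells, with log2 ratios of -0.77 and -0.83. Foxo1 target genes had 10 of 14 above 0 with a median of 0.08. Signalling partners of TIGIT and CD226 had 8 of 14 above 0 with a median of 0.01, inhibitory receptors 8 of 11 with a median of 0.08, and IL-2 and STAT5 genes 6 of 18 with a median of -0.06. Apoptosis genes had 11 of 18 above 0 in Treg-origin cells, with a median of 0.07, and 1 of 18 in CD4 cells, with a median of -0.09.

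Among genes that differed in conventional cells alone, Gm12840, a predicted gene, stood at 106 and 153 CPM in CD4 and 66.7 and 99.6 CPM in CD8 cells. Its Treg-origin level was 115 and 106 CPM. Cldnd1 (a claudin-domain membrane protein) was at 197 and 254 CPM in CD4 and 106 and 138 CPM in CD8 cells, and the histone gene Hist1h4h was lower in both, with ratios of 0.770 and 0.757. Of 21 genes expressed in Treg-origin cells and under 10 CPM in conventional cells, 1 (4.76%) was at least 1.5-fold higher. It was Lgmn (legumain, a lysosomal protease), at 38.6 and 65.4 CPM (1.70, 1.29 to 2.24), but at 75.0 and 40.02 CPM in the CD226-deficient pair.

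Genes near the deleted locus were also read, since they lie on the same chromosome. Of 11 genes of at least 10 CPM within 5 Mb of Tigit, 8 were above 0 in Treg-origin cells (all genes 54.4%) with a median of 0.29, against 0.08 in CD4 and 0.01 in CD8 cells. In the CD226-deficient pair 7 were above 0 with a median of 0.14. Gtpbp8 (12.6 and 20.1 CPM) and Usf3 (7.81 and 12.4 CPM) were highest, and Cd200r1, an inhibitory receptor, was at 29.1 and 41.1 CPM. The levels were low, so counting error was wide, and whether sequence linked to the deletion has a part in these values was not tested.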

How the data were processed

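The deposited count matrices hold whole-number UMI counts per gene and cell barcode and counts of the CD45.1 and CD45.2 antibodies. Per the submitters' processing notes they were made with Cell Ranger 3.1.0 on mm10. The labels do not say whether the 3 pooled items were recipients or donors. Deposited barcodes numbered 8597 and 11126, of which 7654 and 10383 passed the filter. No doublet caller was run. Cells with r between -0.6 and 2.2, where marrow-derived CD45.1+ CD45.2+ T cells and mixed doublets fall, were left out. UMIs were summed per class and scaled to the class total (CPM). Intervals are exact Poisson, exact conditional binomial (ratios) or Clopper-Pearson (shares). Receptor and immunoglobulin segments, mitochondrial, Y-linked and X-inactivation genes were not ranked. A gene was measured in a list when it averaged at least 10 CPM. Treg-only genes could hold at most 25% of UMIs in 5 cells of the richer library. Up to 12 Treg-only genes each way were named by their distance from the conventional mean, up to 10 shared, 5 conventional-only and 5 Treg-expressed genes each way by size, a fixed set of receptor and Treg genes always, and the 2 highest and lowest of each list described. Other members (among them Hmmr, Rfc4, Top2a, Mki67, Cdk1 and Tbx21) were named after their values were seen. The members and the 36 gene lists were chosen with earlier results of these data known. The interaction used edgeR 4.0.16 (R 4.3.3, TMM, filterByExpr, Benjamini-Hochberg), with DESeq2 1.42.0 as an alternative. The scripts were tested on simulated data. Promoters are RefSeq windows of GRCm38.p6, and gene positions are from GENCODE for mm10. Single values of 2 genes that the rule would name are not reported here.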

Additional observations from a re-analysis of the deposited data

Results flagged for a closer look

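Ccl1 differed between Treg-origin and conventional cells in its relation to TIGIT over the 4 libraries, by a test of that difference (log2 difference -1.997, SE 0.24, edgeR adjusted p = 0.00708). Over its alternatives the adjusted p lay between 4.46e-48 (edgeR with no low-count filter) and 0.078 (without the CD226 knockout library), and 5 cells held 60.9% of its Treg-origin UMIs in the wild-type, 63.6% in the TIGIT knockout, 91.2% in the CD226 knockout and 66.7% in the double knockout library.

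Ccl5 was higher in Treg-origin cells (log2 ratio 0.92) and lower in conventional CD4 (-1.12) and CD8 cells (-1.10) of the TIGIT knockout library. This difference between the classes was not tested in the pair, which has 1 library per genotype. Over the 4 libraries it was 0.89 (SE 0.32, edgeR adjusted p = 0.75), and 1.53 (edgeR adjusted p = 0.011) without the double knockout library. Over its alternatives the adjusted p lay between 8.81e-56 (edgeR with no low-count filter) and 0.9995 (DESeq2).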

How the results depend on the processing

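No paired analysis was possible because each genotype is 1 library and the labels carry no replicate numbers. The main count of 27 Treg-only genes became 61 under stricter CD45 limits, 49 under the stricter cell filter, 181 after thinning, 67 with the mean of single-cell CPM, 51 with Foxp3- or Ikzf2-positive cells only, 15 with a pseudocount of 5 CPM, 8 with minimums of 60 and 20 CPM and 238 with no minimum, the last of these because more low genes enter. The 7 shared genes became 11 after thinning, 4 with the higher minimums and 30 with none. Under the stricter cell filter neither Dusp2 nor Ddit4 kept its call as shared higher, and 2 other genes were called so. The Treg-origin log2 ratios of Dusp2 and Ddit4 stayed above 0 in all 14 alternatives. An alternative chosen after seeing the data kept only Treg-origin cells of at least 2000 UMIs with fewer than 3 mitosis UMIs (220 and 237 cells) and gave 121 Treg-only genes. It picks cells by mitosis UMIs and so gives no value for the mitosis genes. The mitosis median of Treg-origin minus conventional cells (0.25) stayed above 0 in the 13 alternatives run for it, with 0.15 under stricter CD45 limits, 0.17 under the stricter filter, 0.44 after thinning, 0.39 with single-cell CPM, 0.31 without Treg-origin CD8 cells, 0.16 with Foxp3- or Ikzf2-positive cells only and 0.33 without the 5 richest cells. The Treg-origin share became 3.41% and 2.78% under stricter CD45 limits and 4.18% and 3.89% under the stricter filter, in the wild-type and TIGIT knockout libraries. The interaction called 3 genes with DESeq2, 72 without the low-count filter, 19 with a class-by-CD226 term, 1 without TMM, and 2 to 14 when 1 library was left out. Among named genes and list medians past a log2 of 0.14, values that reversed were the immediate early median (0.0718 under stricter CD45 limits, 0.0099 with Foxp3- or Ikzf2-positive cells only and 0.0077 with the higher minimums), Gm12840 (0.13 under the stricter filter, 0.0105 with Foxp3- or Ikzf2-positive cells only), Cldnd1 (-0.0476 after thinning, -0.0722 with single-cell CPM, -0.28 in the mitosis-poor cells) and Hist1h4h (0.29 with single-cell CPM, 0.0756 without Treg-origin CD8 cells, 0.0471 without other-lineage cells, 0.11 without the 5 richest cells, 0.91 in the mitosis-poor cells). Of 20 list medians followed over the alternatives 10 changed sign in at least 1. Besides the immediate early list these were cytotoxicity (-0.17 to 0.13), Foxo1 targets (-0.13 to 0.17), Treg identity (-0.04 to 0.19), ribosome biogenesis (-0.13 to 0.11), interferon-stimulated (-0.05 to 0.12), histones (-0.05 to 0.23), mTORC1 (-0.15 to 0.03), interferon-gamma (-0.08 to 0.02) and IL-2 genes (-0.08 to 0.01). Apart from the fewer or more genes tested, the cause was not tested.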
